A study of Mus musculus with 2 samples.

Results

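Sox5 and Sox6 encode the SoxD transcription factors that act beside Sox9 in cartilage, and this report describes the chromatin that was accessible at both genes in the growing ends of the embryonic mouse femur. The loci were defined by position alone, as the gene body and 100 kb to each side (GENCODE vM21 annotation, mm10 build). Peaks of both lists that overlapped by at least 1 bp were merged into regions, which gave 28 regions at these loci of 32388 in all, 17 at Sox5 and 11 at Sox6. The proximal list held 25 of its 28257 peaks there (15 at Sox5 and 10 at Sox6) and the distal list 21 of its 27958 (13 and 8).

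The data were ATAC-seq peak lists, which record where transposase Tn5 could insert into DNA of intact nuclei, from FVBNJ mice at embryonic day E15.5. Proximal and distal femoral growth plates were dissected away from the shaft and pooled by litter, about 8 animals each, and the labels name no treatment or transgene for either group. The dissected cartilage also contained perichondrium, so the labelled chondrocytes were not a sorted population. There was 1 list per femur end, which already combined 2 biological replicates, so that no spread between replicates could be computed and no difference between ends was tested.

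As a check of the labelled cell type, 5 of 6 chondrocyte marker genes had a region within 1 kb of a start site (Sox9, Col2a1, Acan, Hapln1 and Comp, but not Matn1). The share over all autosomal protein-coding genes was 59.1%. By list, 4 chondrocyte markers had a peak there in the proximal list and 5 in the distal list. None of the 4 osteoblast, 4 skeletal muscle, 4 nerve and glia or 3 blood markers on the autosomes had such a region. The endothelial genes Tek and Kdr did, 1 of them in the proximal list and 2 in the distal, while Pecam1 and Cdh5 did not. Of 3 epithelial markers, Epcam alone had such a region. Both lists covered only the 19 autosomes, and read depth was not analysed here.

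SoxD proteins bind DNA through an HMG box, pair with each other through a coiled coil, and carry no activation domain of their own. In cartilage they bind enhancers of matrix genes such as Col2a1 and Acan together with Sox9, and mice that lack both Sox5 and Sox6 fail to form proper cartilage, while loss of either gene alone is milder. Each gene is long and has several promoters: the long form of Sox5 (L-Sox5) is the cartilage form, and a short form made from a downstream promoter is best known from the testis.

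Sox5 (ENSMUSG00000041540.16) lies at chr6:143828425-144781977 on the minus strand and spans 954 kb. Sox6 (ENSMUSG00000051910.13) lies at chr7:115470872-116038796, also on the minus strand, and spans 568 kb. Regions are numbered within each gene in the direction of transcription, from the upstream flank to the downstream flank. Exons and introns are those of the protein-coding transcript with the longest coding sequence, Sox5-201 (763 codons, 15 exons) and Sox6-206 (828 codons, 17 exons). The window around Sox5 held 8 other annotated genes and none of them was protein-coding, whereas that around Sox6 held 6, of which 3 were (1110004F10Rik, Gm4353 and Plekha7).

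The following mm10 sequences carry the main places described here: the DNA just upstream of the L-Sox5 start sites, the region upstream of Sox6, and the widest region inside each gene body away from start sites. They are written 5′ to 3′ on the strand of transcription, with matches to the searched motifs in capitals. The first runs from the first L-Sox5 start to the upstream edge of region 8, since the middle of that region is exon. The others are the central 300 bases of their regions.
Sox5 region 8, chr6:144209569-144209829, minus strand: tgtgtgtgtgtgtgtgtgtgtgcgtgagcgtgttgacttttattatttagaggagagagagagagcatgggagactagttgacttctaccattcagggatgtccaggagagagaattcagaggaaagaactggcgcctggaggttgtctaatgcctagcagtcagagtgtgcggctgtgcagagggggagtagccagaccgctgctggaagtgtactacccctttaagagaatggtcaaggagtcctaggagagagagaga
Sox5 region 13, chr6:144056815-144057114, minus strand: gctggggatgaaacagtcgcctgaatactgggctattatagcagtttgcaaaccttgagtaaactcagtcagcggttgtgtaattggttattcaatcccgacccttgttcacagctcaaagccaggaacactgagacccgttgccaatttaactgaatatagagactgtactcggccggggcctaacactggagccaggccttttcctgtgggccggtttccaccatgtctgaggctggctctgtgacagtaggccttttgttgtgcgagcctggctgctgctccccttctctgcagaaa
Sox6 region 3, chr7:116039849-116040148, minus strand: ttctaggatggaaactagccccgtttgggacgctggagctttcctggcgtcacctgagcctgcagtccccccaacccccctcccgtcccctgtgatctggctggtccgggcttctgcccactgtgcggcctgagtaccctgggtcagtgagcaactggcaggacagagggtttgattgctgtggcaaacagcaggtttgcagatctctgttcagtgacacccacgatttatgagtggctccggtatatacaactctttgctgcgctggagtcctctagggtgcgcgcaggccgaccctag
Sox6 region 6, chr7:115647884-115648183, minus strand: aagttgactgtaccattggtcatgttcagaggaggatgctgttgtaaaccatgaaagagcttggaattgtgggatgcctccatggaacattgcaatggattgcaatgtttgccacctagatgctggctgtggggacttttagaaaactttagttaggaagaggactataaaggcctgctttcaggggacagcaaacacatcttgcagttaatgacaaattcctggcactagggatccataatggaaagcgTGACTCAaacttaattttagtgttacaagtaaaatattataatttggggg
The sequence upstream of L-Sox5 was 261 bases long, with 50.6% GC and 34.5% of its bases marked as repeats. The central 300 bases of Sox6 region 3, upstream of Sox6 and inside 1110004F10Rik, had the highest GC content of these at 59.3%. Only the Sox6 region 6 sequence held a searched motif, an AP-1 heptamer at base 251.

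At Sox5, the start sites of L-Sox5 were covered by a region in the proximal list only. Annotated starts of Sox5 fell into 4 groups when starts within 1 kb were joined. The L-Sox5 group, at 144209452 to 144209568, held 6 transcripts, 4 of them coding for 679 to 763 codons. Region 8 (chr6:144209046-144209829, 784 bp, proximal only) covered all of these starts together with 200 bp of 5′ UTR and 38 bp of coding sequence in exon 1. The nearest distal peak to those starts was 42.6 kb away. Of all regions, 58.0% were narrower than it.

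The other Sox5 starts had no region within 1 kb in either list. The short-form group, at 143947088 to 143947106 (3 coding transcripts, 135 to 392 codons), was nearest to region 14, which lay 20.8 kb upstream and was shared. The most upstream group, at 144781919 to 144781977, consisted of 2 non-coding transcripts and was 52.5 kb from the nearest proximal peak and 71.4 kb from the nearest distal one. A pair of non-coding transcripts inside intron 1, at 144204057 to 144204427, began 4.62 kb from region 8. Of 20807 autosomal protein-coding genes, 59.1% had a region within 1 kb of a start, and in 2.26% of those 12302 genes every such region was proximal only, the state of Sox5.

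At Sox6, no region overlapped an annotated start, and 2 of 9 groups of starts had a region within 1 kb. The 9 groups hold 13 distinct starts. Region 3 (chr7:116039460-116040538, 1079 bp, shared) lay 664 bp upstream of the first group, from which Sox6-204 (787 codons) begins, with peaks of 1046 bp in the proximal list and 1072 bp in the distal list. That region also holds 312 bp of 5′ UTR of 1110004F10Rik, a gene that runs the other way, and it cannot be assigned to either gene by position. Region 5 (chr7:115825369-115825777, 409 bp, distal only) lay 659 bp upstream of Sox6-205, a 787-codon transcript that starts inside the gene at 115824710. The nearest proximal peak to that start was 112 kb away.

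The remaining Sox6 promoters were farther from any region. The starts at 116031047 (785 and 786 codons) were 8.41 kb from region 3, and the reference start at 115995086 (827 and 828 codons) was 44.4 kb from it. Transcripts of the same coding length that begin at 115846105 to 115846151 were 20.3 kb from a distal peak and 90.7 kb from a proximal one. Among Sox6 transcripts of 785 codons or more, the 787-codon Sox6-204 and Sox6-205 were thus the only ones with a peak of either list within 1 kb of the start.

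**Figure D1:**
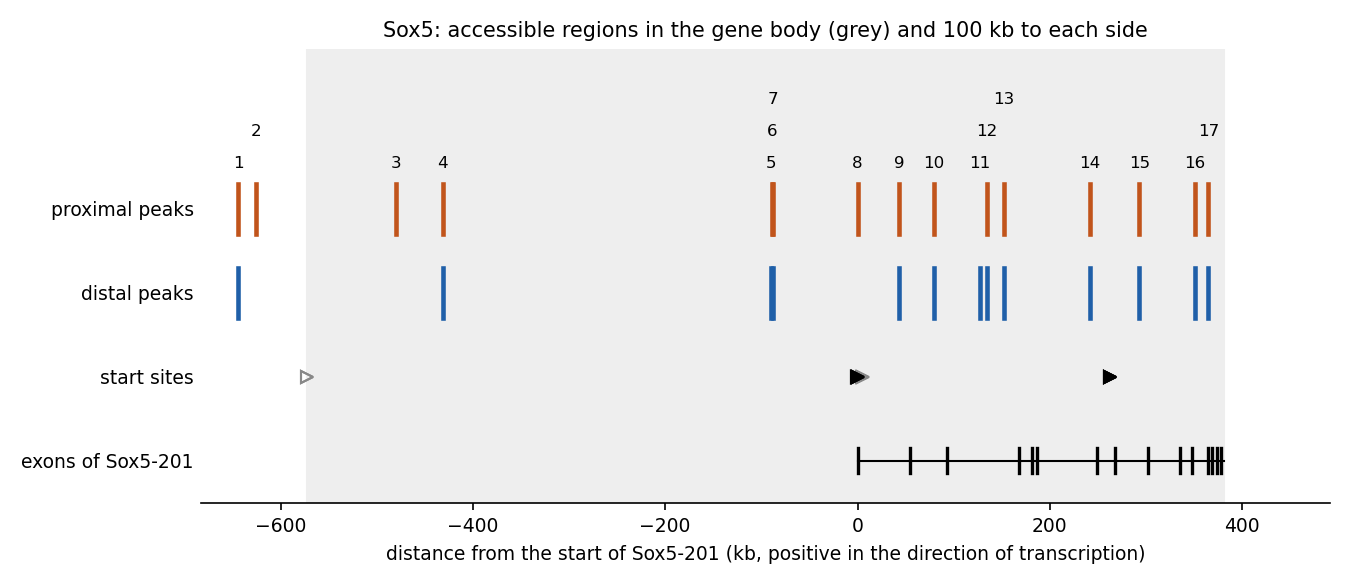
Positions of the 17 regions at Sox5, in kb from the Sox5-201 start, with transcription to the right. Orange ticks are proximal peaks and blue ticks distal peaks (drawn wider than scale), arrowheads are start sites (filled for protein-coding transcripts), black bars are exons and grey is the gene body; the tick at the L-Sox5 start (region 8) is present in the proximal row alone.

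The Sox5 gene body held 15 regions, 10 of them shared. Against Sox5-201, 8 regions were intronic, 2 overlapped exons (region 8 at exon 1 and region 17 at exon 12) and 5 lay in the gene body upstream of the reference start, within introns of the longest transcript, Sox5-209. The regions were unevenly spread. Divided into 10 equal parts from the first start, the body held 1, 1, 0, 0, 0, 3, 3, 3, 1 and 3 regions, and the longest stretch without a region was 341 kb, from 144299832 to 144640497. The median gap between neighbouring regions across all chromosomes was 34.0 kb.

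Intron 3 of Sox5-201 held 3 regions, and the widest of the locus was among them. Region 13 (chr6:144056401-144057528) was 1128 bp wide in the distal list and 991 bp in the proximal list, and 85.8% of all regions were narrower. Region 12 (chr6:144074619-144075423) had peaks of 736 bp proximally and 805 bp distally. Region 11 (chr6:144082143-144082614, 472 bp) was in the distal list only, with the nearest proximal peak 6.77 kb away. Intron 1 held region 9 (chr6:144165940-144166842, 903 bp, shared), the next widest, and intron 11 held region 16 (chr6:143858549-143859389, 841 bp, shared), of which 48.6% was repeat sequence.

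A cluster of 3 regions lay 87.4 to 89.9 kb upstream of the L-Sox5 starts and showed each class side by side. Region 7 (chr6:144296957-144297767, 811 bp) was shared, with peaks of 768 bp proximally and 651 bp distally. Region 6 (chr6:144297869-144298262, 394 bp) was proximal only, 101 bp from region 7 and 261 bp from the nearest distal peak. Region 5 (chr6:144299441-144299831, 391 bp) was distal only and 1178 bp from its neighbour. Both single-end regions of the cluster were narrow, with 9.49% and 9.19% of all regions narrower.

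Farther upstream the regions of Sox5 were sparse. Region 4 (chr6:144640498-144641046, 549 bp) was shared, and region 3 (chr6:144688937-144689554, 618 bp, proximal only) lay inside the antisense gene Sox5os3, 47.9 kb from a distal peak. Beyond the gene, region 2 (chr6:144834524-144835126, 603 bp, proximal only) was 52.5 kb upstream of the first start. Region 1 (chr6:144853375-144853923, 549 bp, shared) was 71.4 kb upstream, and 92.7% of its bases were repeat sequence, the most at either gene. The downstream flank of Sox5 held no region.

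**Figure D2:**
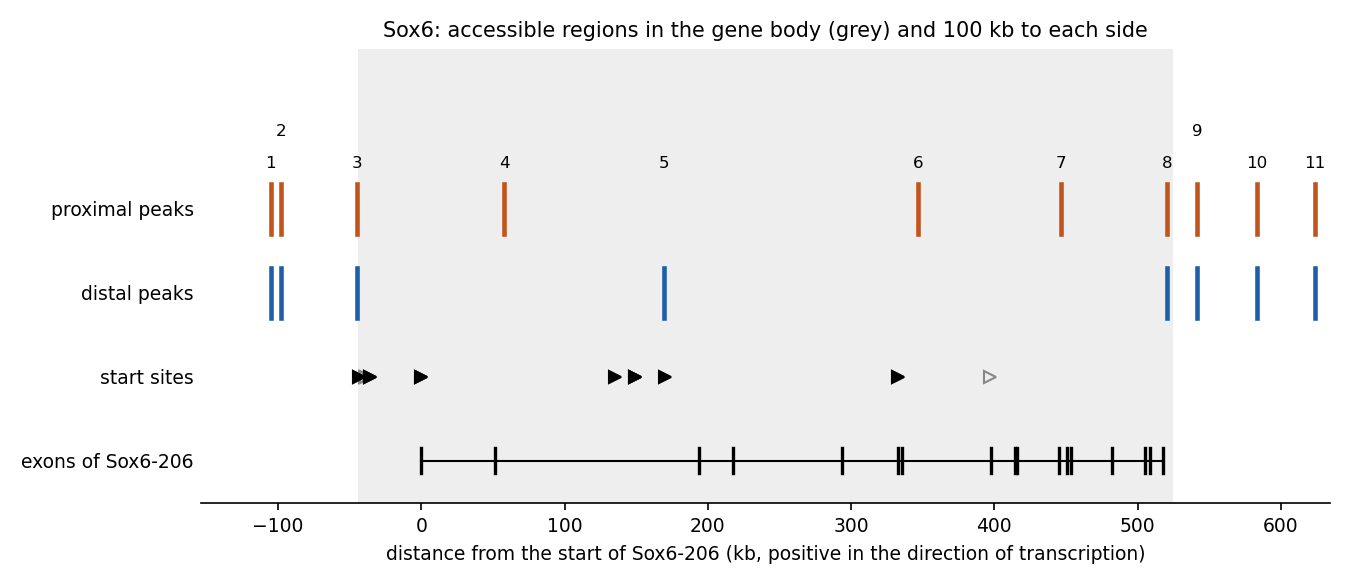
Positions of the 11 regions at Sox6, in kb from the Sox6-206 start, drawn as for Sox5 with proximal peaks in orange and distal peaks in blue. Of the 5 regions in the grey gene body only number 8, at the 3′ end, has a tick in both rows, and all 6 regions of the flanks do.

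The shared regions of Sox6 lay mostly outside the gene. In its body 1 of 5 regions was shared (20.0%, 95% Wilson interval 3.62 to 62.4%), 3 were proximal only and 1 was distal only. Over all regions, 73.0% were shared, and 62.0% of those over 1 kb from every start, a value that lies within this interval. All 6 regions of the Sox6 flanks were shared, with a Wilson interval (61.0 to 100%) that holds both of these genome-wide shares. Flank regions 2 and 3 lay within 1 kb of starts of 1110004F10Rik. The proximal-only regions of the Sox6 body were region 4 in intron 2 (chr7:115936842-115937337, 496 bp), region 6 in intron 7 (chr7:115647689-115648378, 690 bp) and region 7 in intron 11 (chr7:115548312-115548824, 513 bp). Their nearest distal peaks were 102, 173 and 73.8 kb away. The longest stretch of the body without a region was 177 kb.

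The shared region of the Sox6 body, region 8 (chr7:115473941-115474515, 575 bp), lay past the end of Sox6-206 and entirely within the 3′ UTR of longer transcripts. Downstream of the gene, region 9 (chr7:115453013-115453850, 838 bp) had the largest difference in width between ends, 838 bp proximally and 436 bp distally, and regions 10 and 11 were shared as well. Upstream, region 2 (chr7:116092806-116093765, 960 bp, shared) covered starts of 1110004F10Rik and 1700003G18Rik, and region 1 (chr7:116100044-116100690, 647 bp, shared) lay inside 1110004F10Rik. Of the 5 widest regions of the Sox6 window, 4 lay outside the gene body.

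Over both genes, the share of regions called in both ends was near that of comparable regions elsewhere. Of the 28 regions, 18 were shared (64.3%, Wilson interval 45.8 to 79.3%), 7 were proximal only (25.0%) and 3 distal only (10.7%). Over all 32388 regions these shares were 73.0%, 14.1% and 12.9%. Among the 24 member regions over 1 kb from every annotated start, 16 were shared (66.7%, 46.7 to 82.0%), against 62.0% shared, 20.9% proximal only and 17.1% distal only for the 18614 such regions genome-wide. The shares of Sox5 (11 of 17, 64.7%) and Sox6 (7 of 11, 63.6%) were alike, with intervals of 41.3 to 82.7% and 35.4 to 84.8%. These intervals cover counting error only. A region missing from a list did not pass the threshold of that list, and its signal there was not analysed here.

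Among the 26 autosomal protein-coding genes of at least 500 kb that, like Sox6, had 5 regions in the body, 3 (11.5%) were at or below its share of 20.0%, namely Sox6, Cntn4 and Syt1, and the median share was 60.0%. Over the 138 such genes with 5 or more regions in the body, the median was 66.7%, which is also the value of Sox5. Genes with fewer regions were not counted, and some of those had none shared. This comparison was chosen after the values of Sox6 had been seen and is given as a description.

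**Figure D3:**
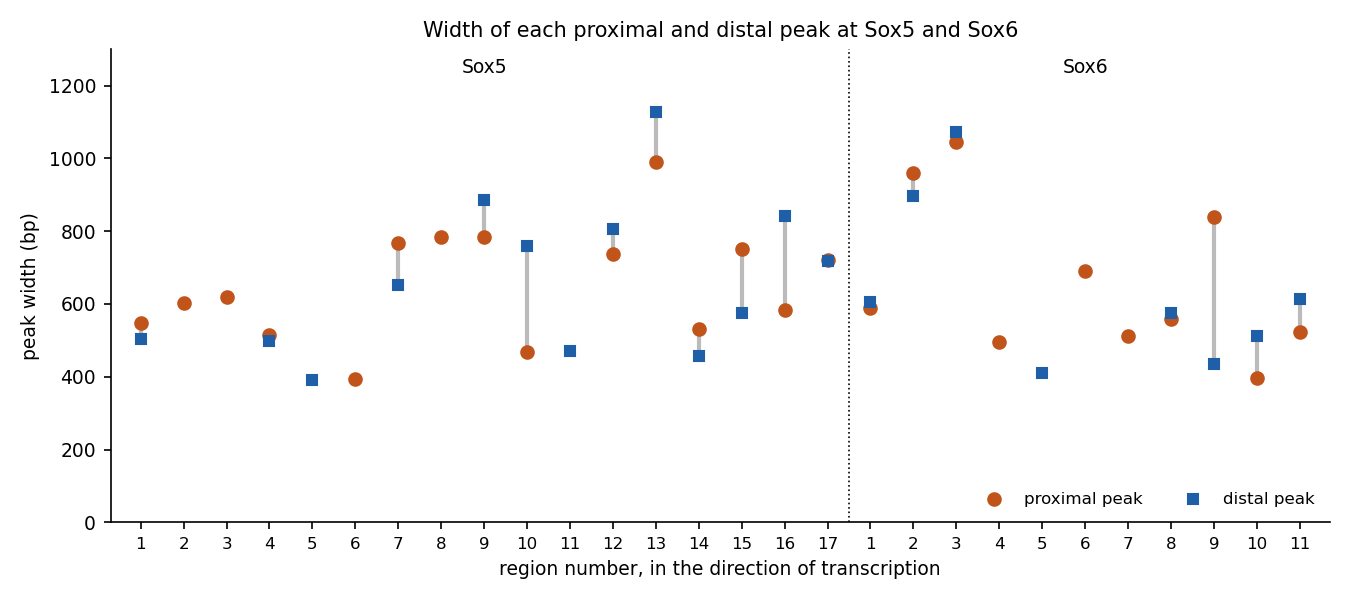
Peak width in bp (vertical axis from 0) for each region of Sox5 and Sox6, in the direction of transcription, with proximal peaks as orange circles and distal peaks as blue squares; grey bars join the peaks of a shared region. The 3 distal-only regions, at 391 to 472 bp, are among the narrowest, and shared regions 10 and 16 of Sox5 and 9 of Sox6 have the longest bars.

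Shared regions had a larger median width than those called in a single end, at these genes and genome-wide. The median width was 752 bp at Sox5 (range 391 to 1128) and 614 bp at Sox6 (409 to 1079), against 716 bp over all regions and 598 bp over all regions far from starts. By class, the medians of the members were 759.5 bp for shared, 603 bp for proximal-only and 409 bp for distal-only regions, and 812, 510 and 497 bp over all regions. A merged region is at least as wide as either peak in it, which adds to the width of the shared class.

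Neither end had the wider peaks at both genes. The proximal peak was the wider in 8 of the 18 shared regions, 6 of 11 at Sox5 and 2 of 7 at Sox6, and the median difference (proximal minus distal) was -16.0 bp with a range of -291 to 402 bp. Over all shared regions with a single peak of each list, the proximal peak was the wider in 57.1% and the median difference was 15.0 bp; far from starts these values were 60.0% and 20.0 bp. The extremes were region 10 of Sox5 in intron 2 (chr6:144129812-144130571), at 469 bp proximally and 760 bp distally, and Sox6 region 9. The overlap of paired peaks covered a median of 87.2% of the wider peak (52.0 to 97.4%).

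Base composition varied among the regions at start sites. Median GC content was 46.2% at Sox5 and 46.7% at Sox6, against 51.6% over all regions and 47.2% over those far from starts. The ratio of observed to expected CpG was 0.777 in Sox6 region 2 and 0.634 in Sox6 region 3, the highest among the members, both at starts of 1110004F10Rik. It was 0.317 in region 8 at the L-Sox5 start, below the median of all regions (0.352). It was 0.270 in Sox6 region 5, the other region near a start. The highest GC content, 57.0%, was in Sox6 region 9 downstream of the gene, and the lowest, 34.5%, in Sox6 region 7.

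Motif letters were searched on both strands in the 200 bp around each region centre. AP-1 factors (Fos and Jun dimers) bind TGACTCA, and this heptamer was found in 12 of 28 regions (42.9%), 9 of 17 at Sox5 and 3 of 11 at Sox6. It was in 19.9% of all regions and in 30.4% of those far from starts, where all 12 members with a match lay (12 of 24). Of these 24 regions, it was in 10 of 16 shared and 2 of 8 single-end regions. Among all regions far from starts it was in 30.7% of shared and 30.0% of single-end regions. The difference between classes at these genes was not tested. It also depends on the window, as proximal-only Sox6 region 6 holds the heptamer just outside the 200 bp and is counted as without a match. The match nearest the centre of each of the 12 regions is printed here with 10 bases to each side, on the strand that reads TGACTCA and with the heptamer in capitals, since this was the motif found at the most members.
Sox5 region 1, chr6:144853636-144853662, minus strand: aagccactggTGACTCAcaactgtctg
Sox5 region 3, chr6:144689266-144689292, minus strand: ctgtggtgagTGACTCAgaagagccca
Sox5 region 4, chr6:144640747-144640773, minus strand: aaagtccgtgTGACTCAcagccttgtc
Sox5 region 6, chr6:144298142-144298168, plus strand: tgaagggagaTGACTCAgtagatggag
Sox5 region 7, chr6:144297300-144297326, plus strand: gcatgagaggTGACTCActcactgaag
Sox5 region 9, chr6:144166288-144166314, minus strand: tcctccacgcTGACTCAgaggcccacc
Sox5 region 12, chr6:144075005-144075031, plus strand: tcaggagcaaTGACTCAtgggttaaac
Sox5 region 14, chr6:143968126-143968152, minus strand: ggttcaccctTGACTCAggcagccctc
Sox5 region 15, chr6:143916375-143916401, minus strand: agggaatcaaTGACTCAgccctaacga
Sox6 region 1, chr7:116100367-116100393, minus strand: caaggatcacTGACTCActacagaacg
Sox6 region 8, chr7:115474279-115474305, plus strand: gacgtaaaaaTGACTCAgatccggcaa
Sox6 region 10, chr7:115411766-115411792, plus strand: cttggggagcTGACTCAggaaggcagc
Region 1 of Sox5 held 5 matches in its 200 bp, in repeat sequence, Sox6 region 1 held 3, and Sox5 region 12 held 2. The match of Sox6 region 8 is in the 3′ UTR.

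SOX proteins bind variants of a short A and T rich site, here searched as ACAAAG and ACAATG. Either hexamer was found in 5 of 28 regions (17.9%), against 14.7% of all regions and 17.9% of all those far from starts. Among the 24 members far from starts, ACAAAG was in 3 (12.5%) and ACAATG in 1 (4.17%), against 12.7% and 5.96%. Of the 4 regions with ACAAAG (14.3%, against 10.4% of all), 3 were called in a single end, including region 8 at the L-Sox5 start, where the match is in the 5′ UTR. Over all regions far from starts, ACAAAG was in 12.5% of shared and 13.1% of single-end regions, and among the members far from starts it was in 1 of 16 and 2 of 8. ACAATG was found in 1 region (3.57%, against 4.82%). The matches are printed with the hexamer in capitals because both members encode SOX proteins.
Sox5 region 5, chr6:144299719-144299744, minus strand: tagggccaggACAAAGctgggctgtg
Sox5 region 8, chr6:144209379-144209404, minus strand: ggccgctgtgACAAAGggaaactgtg
Sox6 region 7, chr7:115548542-115548567, plus strand: ctgttggcccACAAAGctggaatggt
Sox6 region 10, chr7:115411803-115411828, plus strand: tggcctagaaACAAAGcttctttcag
Sox5 region 15, chr6:143916329-143916354, plus strand: tccacttagcACAATGcttctggcgc
Sox9 dimers bind inverted pairs of such sites, searched as ACAANG followed within 10 bases by CNTTGT, which overlaps the single hexamers. No region of the 28 held a pair, which allows a share of up to 10.7%, and 0.303% of all regions did.

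The other motifs were found in few members. RUNX letters (ACCACA), for the factors of chondrocyte maturation, were in 5 regions (17.9%, against 13.7% of all and 18.1% of those far from starts). TEAD letters (GGAATG), for the partners of Yap and Taz, were in 6 (21.4%, against 10.7% and 13.8%). Among the 24 members far from starts, RUNX and TEAD letters were each in 5 (20.8%). The PBX/HOX letters TGATTGAT were in region 12 of Sox5 alone (3.57%, against 0.306%). The ETS letters CCGGAAG and FOX letters TGTTTAC were in none, which allows a share of up to 10.7% for each. They were in 5.00% and 2.54% of all regions, and in 1.45% and 3.53% of those far from starts. With 28 regions, a single match is 3.57%, so none of these shares resolves a small difference.

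**Figure D4:**
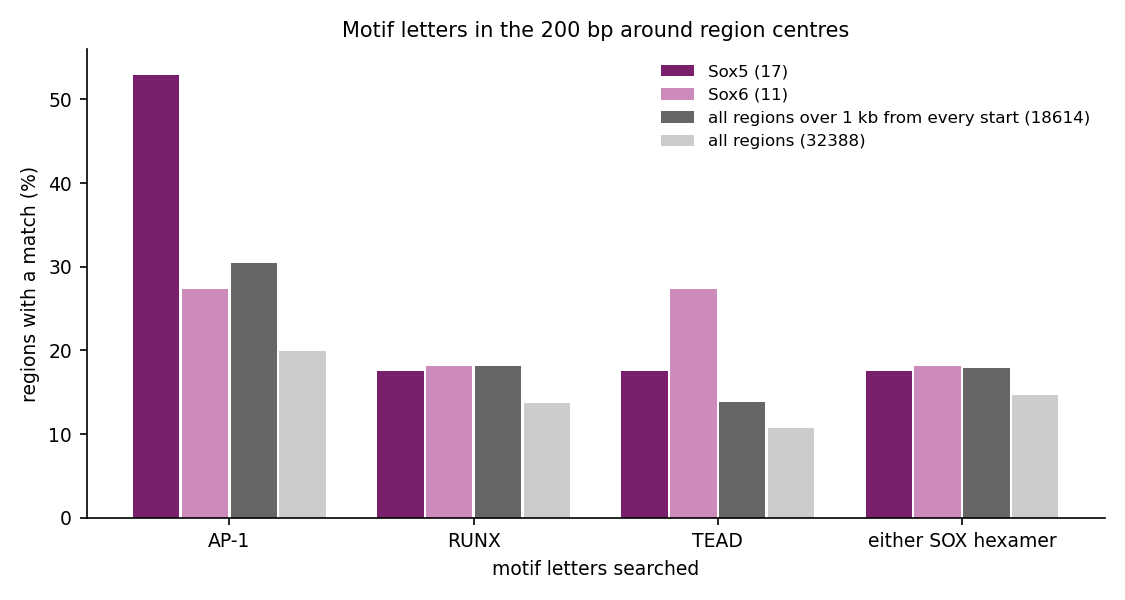
Percentage of regions (vertical axis from 0) with at least 1 match to AP-1, RUNX, TEAD or either SOX hexamer in the central 200 bp, for Sox5 (17 regions), Sox6 (11), all regions over 1 kb from every start (18614) and all regions (32388). The AP-1 bar of Sox5 stands at 52.9% and that of Sox6 at 27.3%, against 19.9% of all regions and 30.4% of those far from starts. Both gene bars include regions near starts. Far from starts, the heptamer was in 9 of 16 regions of Sox5 and 3 of 8 of Sox6.

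Sox5 was among the genes with the most regions, and is also among the longest. Of 20807 autosomal protein-coding genes, 127 had more regions than its 17 in the body and 100 kb flanks, and 99.1% had fewer. Sox6, with 11, was above 91.2% of genes. Per 100 kb of that window the values were 1.47 for Sox5 and 1.43 for Sox6, below the median of all genes (2.00). Among the 218 genes of at least 500 kb, where the median was 0.793 per 100 kb, they were above 79.8% and 78.9% of genes. In the gene bodies alone, the 15 regions of Sox5 were above 89.4% of these long genes and the 5 of Sox6 above 36.7%. The median of the long genes was 6. Per 100 kb of body, Sox5 (1.57) was above 84.4% of them and Sox6 (0.880) above 58.7%, with a median of 0.745.

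**Figure D5:**
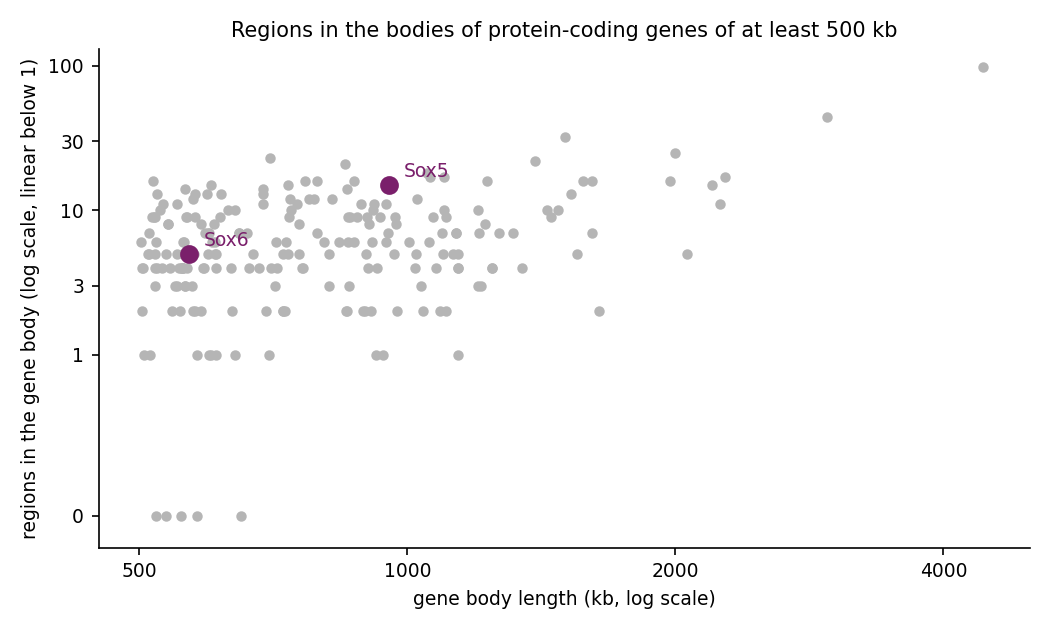
Number of regions in the gene body against gene body length for the 218 autosomal protein-coding genes of at least 500 kb (both axes logarithmic, the vertical one linear below 1), each point a gene. Sox5, with 15 regions in 954 kb, lies in the upper part of the cloud and Sox6, with 5 regions in 568 kb, near its middle.

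Most other Sox genes are short and held few regions in their bodies. The 16 other autosomal Sox genes had 1 to 12 regions (median 3.50), a median of 1.71 per 100 kb, and together 6 regions in their bodies. A region at an own start was present in 6 of the 16 (Sox2, Sox4, Sox8, Sox9, Sox11 and Sox12), against 59.1% of all autosomal protein-coding genes. It was shared in all 6. Of all regions 73.0% were shared, and of those far from starts 62.0%, so the share of regions at starts is above 73.0%. Sox13, the third SoxD gene, had 1 region in its window and none in its body or at a start. Sox9, the partner of both members, had 3 regions in its window, 1 shared and 2 proximal only, with the shared region at its start.

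In a list of 18 cartilage genes, 14 had a region within 1 kb of a start, against 59.1% of all autosomal protein-coding genes. In 11 genes at least 1 such region was shared, among them the matrix genes Col2a1, Acan and Col9a1. The 3 genes whose start regions were called in a single end were Col9a2, Col11a2 and Comp. The share of all genes with a shared region at a start is not given here, so 11 of 14 cannot be set against it. By region, 73.0% of all and 62.0% of those far from starts were shared, so more than 73.0% at starts. The 18 genes had 3 to 13 regions (median 6.5) and a median of 2.72 per 100 kb, above both SoxD genes. All 18 are shorter than Sox5 and Sox6. The median was 2.00 per 100 kb over all genes and 0.793 over those of at least 500 kb. Runx2, a regulator of chondrocyte maturation, is also a long gene at 319 kb. It had 6 regions (1.16 per 100 kb), all in its body and none at a start.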

How the data were processed

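ATAC-seq was performed by the authors on dissociated E15.5 cartilage from each end of the femur, with 50000 cells per reaction. Reads were aligned to mm10 (Bowtie2 2.2.8 in the submitters' processing notes) and peaks were called with MACS2 (version 2.1.1 in those notes). The deposited files hold peak positions only, 1 list per femur end that combines 2 replicates at an irreproducible discovery rate (IDR) threshold of 0.05. They give no score, count or signal, so depth and peak strength were not analysed here.

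Starts were read as 0-based and are printed 1-based. Peaks that overlapped by 1 bp or more were merged in Python 3.11.15. Genes and transcripts came from GENCODE vM21, and sequence and repeat marks from the GRCm38.p6 assembly, whose chromosomes are those of mm10. A region was at a start site within 1 kb. The letters of 9 motifs were searched in 200 bp around the centre. Wilson intervals (95%) were computed with SciPy 1.17.1. The merging and counting steps were tested on simulated peaks. No test was made between ends, as each had 1 list. The members, gene lists and motifs were chosen with earlier results of these data known. Named in the text are all regions at start sites, all called in a single end and the 5 widest of each gene, with a few others chosen after their values were seen; the printed motif matches, and the shorter upstream stretch for the L-Sox5 start, were also chosen then. Alternatives to window, overlap, start distance, transcript, width and motif window were tried.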

Additional observations from a re-analysis of the deposited data

How the results depend on the processing

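Of 67 alternative values computed, 51 stayed within the limits set for them and 16 moved. Where peaks narrower than their list's median width were dropped, 9 regions were left at Sox5 and 3 at Sox6. With the gene body only, Sox6 kept 5 regions, 20.0% of them shared, and with 50 kb to each side it had 7. Where a region had to overlap a start, Sox6 had 0 at its starts. Intronic regions of Sox5 numbered 14 against its longest transcript and 13 where only a centre in an exon of any transcript counted as exonic. In whole regions in place of 200 bp, matches were found in 14 regions for ACAAAG, 8 for ACAATG, 11 for RUNX, 10 for TEAD, 4 for FOX and 2 for PBX/HOX, and in 400 bp in 7 for ACAAAG and 5 for ACAATG; a longer window holds more letters. Over whole regions 37.1% of all regions held ACAAAG, against 14 of the 28 members. RUNX and TEAD letters were then in 39.3% and 35.7% of the members, close to their 38.5% and 34.5% of all regions. The higher TEAD share of the members in 200 bp was thus not seen in whole regions. ACAATG was in 28.6% of the members (19.9% of all), FOX in 14.3% (8.65%) and PBX/HOX in 7.14% (1.31%). The AP-1 count moved to 15 in whole regions, within 1.5 times, which is 53.6% of the members against 33.4% of all regions. These whole-region shares were not computed for regions far from starts, where most members lay. Restricting the shares to regions over 1 kb from every start, an alternative chosen after seeing the data, gave 68.8% shared at Sox5 and 62.5% at Sox6. No paired analysis was possible because each list combines its replicates, and no replicate could be left out. Depth limits which regions entered a list, and its part in the single-end calls was not tested.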
